A study of Mus musculus with 12 samples.

Results

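The erythroid genes of this aortic series are 9 named genes: the adult alpha globins Hba-a1 and Hba-a2, the adult beta globins Hbb-b1 and Hbb-b2, Alas2, Slc4a1, Ahsp, Klf1 and Rhag. They were chosen by name, with results of these same arrays already in view, from the probes that are not controls, so their values are given as a description and without a test. Each of the 9 genes had 1 probe of 60 bases printed in 1 spot, out of 32053 gene or transcript names on the array. For 6 of the 9 genes the probe was well above background on all 12 arrays. These were the 4 globins, Alas2 and Slc4a1. Klf1 was well above background on 1 of 12 arrays, and Ahsp and Rhag on 0 of 12.

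RNA was taken from the aorta of male C57BL/6J mice aged 11 to 14 weeks, on day 3 of treatment, with 1 mouse per array and 3 mice in each of 4 groups. DMSO mice received only the vehicle, dimethylsulfoxide, and rapamycin mice received the mTOR inhibitor rapamycin at 2 mg/kg/day in that vehicle. BA+DMSO mice received the vehicle and a challenge that leads to aortic dissection, made of β-aminopropionitrile (BAPN, 150 mg/kg/day), an inhibitor of collagen and elastin crosslinking, and angiotensin II (AngII, 1 µg/kg/min). BA+rapamycin mice received the same challenge and rapamycin at 2 mg/kg/day. The titles of the DMSO arrays begin with Pre, while their treatment label is DMSO alone and their day is 3.

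Red cells are filled with haemoglobin, a tetramer of alpha and beta globin chains that carries heme. Alas2 makes the first compound of heme synthesis in erythroid cells, Slc4a1 is band 3, the anion exchanger of the red cell membrane, Ahsp is a chaperone of free alpha globin, Klf1 is a transcription factor that drives beta globin, and Rhag is a membrane protein of the Rh complex. Adult mice make red cells in the bone marrow and spleen, and reticulocytes, the young red cells of the blood, still hold globin and Alas2 RNA. The aortic wall is not known as a site of red cell formation. The study describes perfusion only for aortas that were to be fixed, while those for RNA were taken out directly. The part of blood left in the vessel was not tested. In bulk tissue, more cells of a type and more RNA per cell cannot be told apart.

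The regions just before the start sites of globin genes and Alas2 are shown because these genes varied together across the arrays while lying on 3 chromosomes. Whether the motifs in them bear on that shared variation was not tested. Each line gives the 250 bases before the start, read on the strand of the gene, from RefSeq on build GRCm38.p6. Capitals mark 3 motifs on either strand: AGATAA or TGATAA, read by GATA factors, CACCC, read by Klf factors, and CCAAT. The windows are chr11:32283422-32283671 for Hba-a1, chr7:103813924-103814173 for Hbb-bt, chr7:103827929-103828178 for Hbb-bs and chrX:150547167-150547416 for Alas2.
Hba-a1: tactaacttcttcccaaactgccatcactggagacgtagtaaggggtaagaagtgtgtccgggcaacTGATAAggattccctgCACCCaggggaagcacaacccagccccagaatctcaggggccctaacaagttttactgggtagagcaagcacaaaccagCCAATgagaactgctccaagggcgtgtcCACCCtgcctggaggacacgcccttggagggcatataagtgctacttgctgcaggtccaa
Hbb-bt: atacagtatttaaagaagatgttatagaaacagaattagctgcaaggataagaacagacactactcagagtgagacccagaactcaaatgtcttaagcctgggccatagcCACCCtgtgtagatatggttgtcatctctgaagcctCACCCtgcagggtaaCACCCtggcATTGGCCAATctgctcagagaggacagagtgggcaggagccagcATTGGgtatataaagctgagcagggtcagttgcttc
Hbb-bs: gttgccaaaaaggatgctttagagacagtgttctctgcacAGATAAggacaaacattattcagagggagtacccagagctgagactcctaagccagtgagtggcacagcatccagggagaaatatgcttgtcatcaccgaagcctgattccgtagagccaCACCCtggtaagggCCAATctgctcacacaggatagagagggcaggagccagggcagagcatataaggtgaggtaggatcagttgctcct
Alas2: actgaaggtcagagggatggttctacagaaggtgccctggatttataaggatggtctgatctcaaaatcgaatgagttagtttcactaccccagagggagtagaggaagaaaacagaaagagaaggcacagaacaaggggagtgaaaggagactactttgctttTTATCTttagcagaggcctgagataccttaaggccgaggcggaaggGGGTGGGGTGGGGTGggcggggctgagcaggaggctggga

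The Hba-a1 window held a GATA motif whose first base lies 183 bases before the start, CACCC at 167 and 60 bases, and CCAAT at 88 bases. The Alas2 window held the GATA motif on the opposite strand at 86 bases and 3 adjoining CACCC motifs on that strand at 40, 35 and 30 bases. No AGATAA or TGATAA stood in the Hbb-bt window and no CCAAT in the Alas2 window, which says only that these letters are not there. Of 32851 RefSeq promoter windows of this length, 16.6% held AGATAA or TGATAA, 52.0% CACCC, 33.8% CCAAT and 2.33% all 3. The windows of Hba-a1 and Hba-a2, read over 300 bases around the start, shared an unbroken run of 297 bases, and the coding parts of these genes are nearly identical too. Their 2 probes differ from each other, with 25 of 60 bases the same, and the 2 genes are counted separately below, but RNA of which alpha globin gene bound each probe cannot be told apart.

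The probe for Hba-a1 and the probe for Hbb-b2 are shown because they measured an alpha and a beta chain through different letters. Laid on each other without gaps they had 25 identical bases of 40, written in capitals.
Hba-a1 probe: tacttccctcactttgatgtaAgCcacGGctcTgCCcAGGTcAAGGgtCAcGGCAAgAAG
Hbb-b2 probe: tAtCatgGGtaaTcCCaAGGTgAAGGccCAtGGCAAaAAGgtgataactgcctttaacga

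On the build of the array files, mm9 (NCBI37), the Hba-a1 probe lies at chr11:32183955-32184014, the Hba-a2 probe at chr11:32197245-32197304, the Hbb-b1 probe at chr7:110961105-110961164 on the minus strand, the Alas2 probe at chrX:147004993-147005052 and the Slc4a1 probe at chr11:102210256-102210315 on the minus strand. The Klf1 probe lies at chr8:87428881-87428940 and the Rhag probe at chr17:40976929-40976988. The files give no position for the probes of Hbb-b2 and Ahsp, and exon or UTR annotation on mm9 was not analysed here. The transcript that the array calls Hbb-b1 is named Hbb-bt in RefSeq. C57BL/6J mice carry the beta globin genes Hbb-bs and Hbb-bt, and Hbb-b1 and Hbb-b2 are names from another haplotype, so which beta transcript each probe bound cannot be told apart here. The names below are those of the array.

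A level below is the log2 of the background-subtracted signal minus the 75th percentile of all probes on the same array, so that 0 is the 75th percentile and 1 unit is a doubling. No spot was saturated on any array. The 75th percentile itself lay between 221 and 337 intensity units on the 6 arrays without challenge, between 78.1 and 246 on the BA+DMSO arrays and, for BA+rapamycin, between 74.6 and 109. The 3 DMSO arrays and rapamycin 1 were on the first slide, and the other 8 arrays on the second, so that slide and challenge cannot be told apart between DMSO and BA+DMSO. DMSO 2 stood apart, with the lowest level of all 12 arrays in 6 of 6 measured erythroid genes.

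By scaled level, erythroid RNA was lowest in DMSO, higher in rapamycin, higher again in BA+DMSO and highest in BA+rapamycin. The group means of the scaled levels had this order in all 6 measured genes. The step from rapamycin to BA+DMSO was small in Hba-a1 (0.23) and Hbb-b2 (0.32) and turned to -0.13 and -0.08 with slide as a fixed term. It was also below 0 for Hba-a1 and Hbb-b2 without rapamycin 1 or without BA+DMSO 3, and for Hba-a1 under normexp background correction. The groups were not all separate: DMSO and rapamycin overlapped in 5 of the 6 genes, and rapamycin and BA+DMSO in the 4 globins. The alpha globins carried the pattern as follows. Hba-a1 had levels of 5.50, 3.63 and 5.88 in DMSO, 5.77, 7.0 and 6.68 in rapamycin, 6.59, 6.31 and 7.24 in BA+DMSO, and 7.81, 7.59 and 7.63 in BA+rapamycin. The group means ± SD of Hba-a1 were 5.0 ± 1.20, 6.49 ± 0.64, 6.71 ± 0.48 and 7.68 ± 0.12 (n = 3 each, in the same order). All 3 BA+rapamycin arrays lay above all other arrays, and DMSO 2 lay far below the other DMSO arrays.

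Hba-a2 had levels of 7.54, 6.54 and 8.45 in DMSO, 8.15, 9.03 and 8.31 in rapamycin, 9.39, 9.16 and 9.03 in BA+DMSO, and 10.05, 10.72 and 10.33 in BA+rapamycin. Its means were 7.51 ± 0.96, 8.50 ± 0.47, 9.19 ± 0.18 and 10.37 ± 0.34 (SD, n = 3). The lowest BA+DMSO array and the highest rapamycin array were level at 9.03, and no BA+rapamycin array overlapped another group. Before scaling, the Hba-a2 signal was 24821 to 77402 intensity units in DMSO, 73272 to 141970 in rapamycin, 44660 to 128666 in BA+DMSO, and in BA+rapamycin it was 116170 to 138748. The unscaled signals of BA+rapamycin thus overlapped those of rapamycin and BA+DMSO, and the separation appeared after each array was set against its own 75th percentile. For Hba-a1 the unscaled signal was 14039 to 34824 in rapamycin and 14362 to 24615 in BA+rapamycin. For Hbb-b2 it was 1465 to 4028 in rapamycin and 1394 to 3058 in BA+rapamycin. Before scaling, BA+DMSO 3 was the brightest array in every measured erythroid gene but Hba-a2. The order of the groups given above is thus one of scaled levels.

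The beta globins followed the alpha globins. Hbb-b1 had levels of 4.03, 2.43 and 4.59 in DMSO, 4.63, 5.81 and 5.24 in rapamycin, 5.82, 5.01 and 6.31 in BA+DMSO, and 6.90, 7.01 and 6.70 in BA+rapamycin. Its means were 3.69 ± 1.12, 5.23 ± 0.59, 5.71 ± 0.65 and 6.87 ± 0.15 (SD, n = 3). It was the 1 measured erythroid gene in which rapamycin and DMSO did not overlap, by a gap of 0.03 between the nearest arrays. Hbb-b2 had levels of 2.38, 0.17 and 2.54 in DMSO, 2.51, 3.89 and 3.51 in rapamycin, 3.43, 3.05 and 4.39 in BA+DMSO, and 4.81, 4.22 and 4.24 in BA+rapamycin. Its means were 1.70 ± 1.33, 3.30 ± 0.71, 3.62 ± 0.69 and 4.42 ± 0.33 (SD, n = 3), and BA+DMSO 3 lay above the lower pair of BA+rapamycin arrays.

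The 4 globin probes together made up 0.0818%, 0.0357% and 0.139% of the summed signal of all probes in DMSO, and 0.118%, 0.219% and 0.144% in rapamycin. The share was 0.218%, 0.166% and 0.220% in BA+DMSO, and 0.337%, 0.419% and 0.370% in BA+rapamycin. The share does not use the 75th percentile, and it too was highest in every BA+rapamycin array. It was mainly the signal of Hba-a2, the brightest of the 4 probes on every array. On BA+rapamycin 2, for example, Hba-a2 had 126008 intensity units and Hba-a1, the next brightest, 14362. Its means were 0.0853% ± 0.0515, 0.160% ± 0.0525, 0.201% ± 0.0306 and 0.375% ± 0.0413 (SD, n = 3). On an array such a share is one of brightness and not of molecules.

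Alas2, the erythroid enzyme of heme synthesis, overlapped between DMSO and rapamycin but not between the other neighbouring groups. Its levels were -0.72, -2.19 and 0.16 in DMSO, 0.13, 1.13 and 0.34 in rapamycin, 1.64, 1.28 and 1.68 in BA+DMSO, and 2.34, 2.99 and 2.75 in BA+rapamycin. The means were -0.92 ± 1.19, 0.53 ± 0.53, 1.53 ± 0.22 and 2.69 ± 0.33 (SD, n = 3). The gap between the nearest arrays was 0.15 from rapamycin to BA+DMSO and 0.66 from BA+DMSO to BA+rapamycin. The unscaled Alas2 signal was 58.5 to 248 intensity units in DMSO, 282 to 596 in rapamycin, 190 to 792 in BA+DMSO, and for BA+rapamycin it was 555 to 724.

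Slc4a1, the anion exchanger of the red cell membrane, lay below the 75th percentile of its array on all arrays but BA+rapamycin 2. Its levels were -3.13, -3.51 and -2.71 in DMSO, -2.47, -1.98 and -3.15 in rapamycin, -1.62, -1.60 and -1.18 in BA+DMSO, and -1.32, 0.49 and -0.91 in BA+rapamycin. The means were -3.11 ± 0.40, -2.53 ± 0.59, -1.47 ± 0.25 and -0.58 ± 0.95 (SD, n = 3). BA+rapamycin 2 stood far above the other arrays of its group, and without it the difference between BA+rapamycin and BA+DMSO was 0.36 rather than 0.89.

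**Figure D1:**
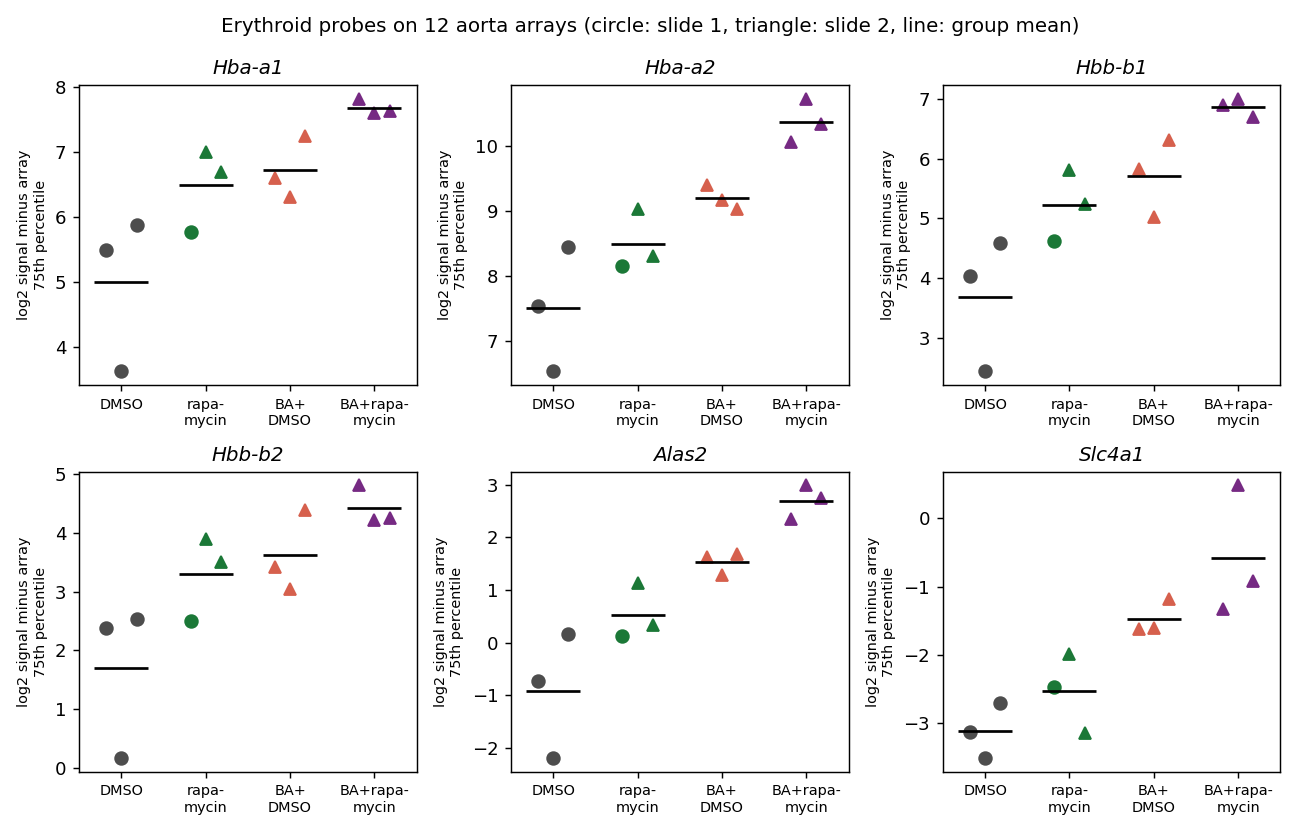
Log2 level of the 6 measured erythroid genes, as signal minus the 75th percentile of the array, in the 4 groups of 3 arrays. Points are single arrays, circles on the first slide and triangles on the second, and lines are group means. The means climb from DMSO to BA+rapamycin in all 6 panels, and the lowest point in each is DMSO 2.

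The remaining erythroid genes were at or near background and have no measured order. The dimmest probe that passed as well above background had a signal of 12.2 to 17.7 intensity units, depending on the array. Rhag had signals of 3.16 to 3.75 on the 12 arrays and Ahsp 3.26 to 9.19, both under that floor throughout. Klf1 had a signal of 23.4 on DMSO 1, the only array on which it was well above background, and 20.1 on rapamycin 2, and its other 10 signals were 3.86 to 9.97. The probe just inside the filter was Slc4a1, with 23.4 to 108 intensity units and 12 of 12 arrays well above background. The 6 measured genes thus stood for the globins, heme synthesis and 1 membrane protein, while the chaperone, the transcription factor and the Rh protein gave no level.

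**Figure D2:**
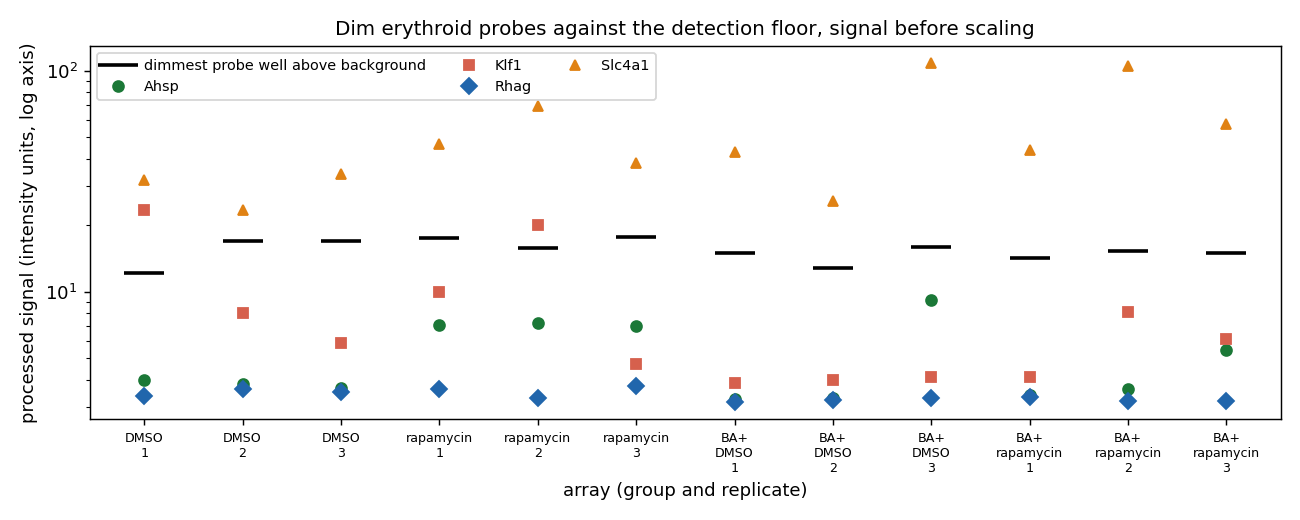
Processed signal before scaling, in intensity units on a log axis, of Ahsp, Klf1, Rhag and Slc4a1 on the 12 arrays. The bars mark the dimmest probe of each array that was well above background. Ahsp and Rhag lie under the bar on 12 of 12 arrays, and Slc4a1 lies above it on 12 of 12.

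The challenge was the first comparison, of BA+DMSO with DMSO. In log2 units with the standard error of the fit, the difference was 2.45 (SE 0.49) for Alas2, 2.03 (SE 0.52) for Hbb-b1, 1.92 (SE 0.60) for Hbb-b2, 1.71 (SE 0.52) for Hba-a1, 1.68 (SE 0.41) for Hba-a2 and 1.64 (SE 0.44) for Slc4a1. Over the scalings tried that of Slc4a1 was as low as 0.97. The first values are folds of 5.46 for Alas2 and 3.12 to 4.08 for the other 5 genes. Their median was 1.82, beside a median of -0.04 over all 27801 probes tested. In a limma fit over all 12 arrays, 6 of the 6 measured erythroid genes passed an adjusted p of 0.05, in a comparison in which 20.5% of all probes tested passed. In 6 of 6 all BA+DMSO arrays lay above all DMSO arrays, as they did for 14.4% of all probes. Since the genes were picked with this contrast in view, these counts are a description. Without DMSO 2 the count was 1 of 6, without BA+DMSO 1 it was also 1 of 6, and with slide as a fixed term 0 of 6.

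DMSO 2 and the slide both bore on these sizes. Without DMSO 2 the challenge differences were 1.81 for Alas2, 1.45 for Slc4a1, 1.40 for Hbb-b1, 1.20 for Hba-a2, 1.16 for Hbb-b2 and 1.02 for Hba-a1. With slide as a fixed term, which rests on the split of the rapamycin group over both slides, they were 1.84 for Alas2, 1.74 for Slc4a1, 1.17 for Hba-a2, 1.13 for Hbb-b1, 0.73 for Hbb-b2 and 0.63 for Hba-a1. The differences of the 6 genes were smaller but positive without DMSO 2, and positive in all with the slide term, where that of Slc4a1 was slightly larger.

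Under rapamycin the challenge comparison was between BA+rapamycin and rapamycin. The difference was 2.16 (SE 0.49) for Alas2, 1.95 (SE 0.44) for Slc4a1, 1.87 (SE 0.41) for Hba-a2, 1.64 (SE 0.52) for Hbb-b1, 1.19 (SE 0.52) for Hba-a1 and 1.12 (SE 0.60) for Hbb-b2. Their median was 1.76, beside -0.08 over all probes tested. Over the scalings tried the lowest values were 1.26 for Slc4a1, 0.96 for Hba-a2, 0.72 for Hba-a1 and 0.70 for Hbb-b2. Passing the threshold were 4 of 6 genes, all but Hba-a1 and Hbb-b2, where 41.7% of all probes passed, and in 6 of 6 the BA+rapamycin arrays lay above all rapamycin arrays, as for 29.8% of all probes. On the second slide alone, which holds rapamycin 2 and 3 and all BA+rapamycin arrays, the differences were 1.98 for Slc4a1, 1.96 for Alas2, 1.70 for Hba-a2, 1.35 for Hbb-b1, 0.83 for Hba-a1 and 0.72 for Hbb-b2. The count called was 2 of 6 on the second slide alone, 2 of 6 in the deposited matrix and 0 of 6 with array brightness as a covariate.

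Rapamycin was compared with vehicle in both backgrounds. Under challenge, BA+rapamycin exceeded BA+DMSO by 1.18 (SE 0.41) for Hba-a2, 1.16 (SE 0.49) for Alas2, 1.16 (SE 0.52) for Hbb-b1, 0.96 (SE 0.52) for Hba-a1, 0.89 (SE 0.44) for Slc4a1 and 0.80 (SE 0.60) for Hbb-b2. With single arrays left out the lowest difference was 0.52 for Hbb-b2 and 0.36 for Slc4a1. All 6 arrays of this comparison were on the second slide. The groups did not overlap in 4 of 6 genes, against 6.9% of all probes, and overlapped in Hbb-b2 and Slc4a1. With limma 0 of the 6 genes passed the adjusted threshold, where 0.281% of all probes passed, and 3 of 6 had an unadjusted p under 0.05. By quantile normalization the differences of the alpha globins were 0.67 for Hba-a2 and 0.61 for Hba-a1, and that of Alas2 was 1.29, and the lowest value for Slc4a1 over the scalings was 0.44.

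In mice without challenge, rapamycin exceeded DMSO by 1.61 (SE 0.60) for Hbb-b2, 1.54 (SE 0.52) for Hbb-b1, 1.48 (SE 0.52) for Hba-a1, 1.45 (SE 0.49) for Alas2, 0.99 (SE 0.41) for Hba-a2 and 0.58 (SE 0.44) for Slc4a1, the last being 0.15 under normexp. The groups did not overlap in 1 of 6 genes, Hbb-b1, where 10.8% of all probes did not overlap in this direction. With limma 0 of 6 passed the adjusted threshold, where 0.0036% of all probes passed, and 5 of 6 had an unadjusted p under 0.05. Without DMSO 2 these differences were between 0.39 for Slc4a1 and 0.91 for Hbb-b1. On the first slide, where a single rapamycin array meets the 3 DMSO arrays, they were 1.05 for Alas2, 0.94 for Hbb-b1, 0.81 for Hbb-b2, 0.77 for Hba-a1, 0.65 for Slc4a1 and 0.64 for Hba-a2.

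The interaction, which is the rapamycin difference under challenge minus that without challenge, was negative in 4 genes and positive in Hba-a2 and Slc4a1. It was -0.80 for Hbb-b2 (95% interval -2.68 to 1.07), -0.52 for Hba-a1 (-2.13 to 1.1), -0.38 for Hbb-b1 (-1.99 to 1.22), -0.29 for Alas2 (-1.81 to 1.24), 0.19 for Hba-a2 (-1.10 to 1.48) and 0.31 for Slc4a1 (-1.06 to 1.67). Without DMSO 2 it was positive in 5 of 6 genes, at 0.67 for Hba-a2, 0.50 for Slc4a1, 0.35 for Alas2, 0.24 for Hbb-b1 and 0.17 for Hba-a1, and -0.04 for Hbb-b2. Its sign thus turned without that array in Alas2, Hbb-b1 and Hba-a1. With DMSO 2 kept and slide as a fixed term it turned in the same genes, to 0.12 for Alas2, 0.21 for Hbb-b1 and 0.20 for Hba-a1. The sign of Hba-a2 turned too, to -0.30 under quantile normalization and -0.28 without DMSO 3, and that of Slc4a1 to -0.23 without BA+rapamycin 2. All 6 intervals over the 12 arrays contained 0 and were wide enough to contain a difference of 1 in either direction. With limma 0 of 6 genes passed the adjusted threshold and 0 had an unadjusted p under 0.05, where 0% of all probes passed. The comparisons above share arrays with each other: the challenge and rapamycin alone share the DMSO arrays, and the challenge and rapamycin under challenge share the BA+DMSO arrays.

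**Figure D3:**
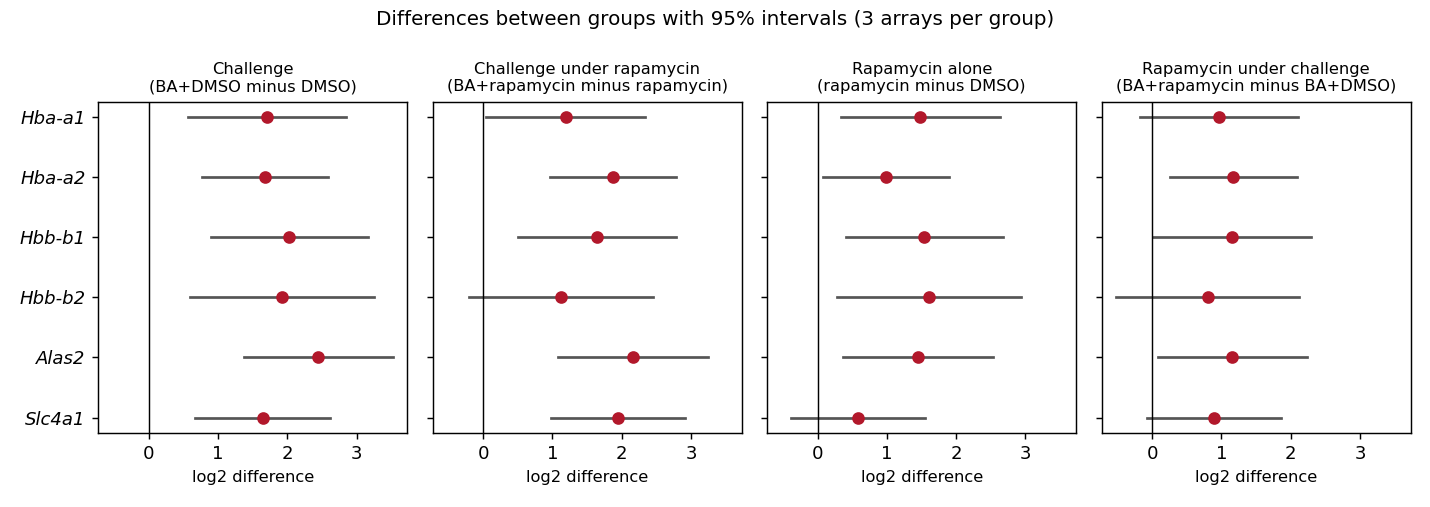
Log2 differences of the 6 measured erythroid genes in 4 comparisons between groups of 3 arrays, with 95% intervals of the limma fit. All points lie to the right of 0, and the widest intervals are those of Hbb-b2. The values are a description, since the genes were chosen with results in view.

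Array by array, the 6 measured erythroid genes were set against the globins, first over all arrays and then within groups. With the mean profile of the other 3 globins over 12 arrays, the Pearson r was 0.99 for Hba-a1, 0.99 for Hbb-b1, 0.96 for Hbb-b2 and 0.92 for Hba-a2. With the mean of all 4 globins it was 0.98 for Alas2 and 0.84 for Slc4a1. After the mean of each group was subtracted, r was 0.98 for Hba-a1, 0.97 for Hbb-b1, 0.93 for Hbb-b2, 0.92 for Alas2, 0.74 for Hba-a2 and 0.40 for Slc4a1. Slc4a1 followed the globins least within groups. Without DMSO 2, over 11 arrays, r within groups was 0.95 for Hbb-b1, 0.94 for Hba-a1, 0.80 for Hbb-b2, 0.77 for Alas2, 0.37 for Hba-a2 and 0.31 for Slc4a1, so the likeness of Hba-a2 within groups rests largely on that array. The 12 points share their arrays, slides and scaling, so these are descriptions.

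Other genes with the profile of the globins were sought among all tested probes with a gene symbol. Among the 10 closest over the 12 arrays were Zdhhc22 with r of 0.99, Gm5226 with 0.97, Beta-s with 0.96, Plac8 with 0.92, and Ccdc68, Slc6a20a, Ttc9, Ctsw and Gm9992 with 0.90 each. Gm5226 is named Hba-ps4 in RefSeq, an alpha globin pseudogene, and Beta-s is named Hbb-bs, the other beta globin gene of this strain. After subtraction of group means the 10 closest included Zdhhc22 (0.96), Beta-s (0.95), Gm5226 (0.94), Ctsw (0.92), Palld (0.88), Rsad2 (0.88), Clec4d (0.88), Plac8 (0.84) and B430306N03Rik (0.82). Zdhhc22, Gm5226, Beta-s, Plac8 and Ctsw were thus among the 10 by both measures. These lists rest largely on DMSO 2, since without it 2 of the 10 genes stayed among the 10 closest by each measure. Zdhhc22 was one of them by both, with r of 0.99 over 11 arrays and 0.95 within groups, and Rsad2 the other within groups. In place of the rest, the list over 11 arrays, chosen after seeing the data, held genes of ribosomal proteins such as Rpl19 and Rpl11, each with 0.94. Zdhhc22, a palmitoyltransferase gene, had 2 probes on the array, of which 1 was tested.

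Beta-s had levels of 0.92, -1.56 and 0.88 in DMSO, 0.87, 2.40 and 1.91 in rapamycin, 1.87, 1.42 and 3.14 in BA+DMSO, and 3.24, 2.72 and 2.51 in BA+rapamycin. Its lowest array was again DMSO 2, and BA+DMSO 3 lay among the BA+rapamycin arrays, as it did for Hbb-b2. Zdhhc22 had levels of -1.05, -2.19 and -0.89 in DMSO, -0.76, 0.44 and -0.33 in rapamycin, 0.06, -0.28 and 0.55 in BA+DMSO, and 1.07, 1.06 and 0.89 in BA+rapamycin. These genes were found by their likeness to the globins, so their differences carry no test.

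The related erythroid genes were 62 genes in 5 lists that the choice of the 9 did not use, and 40 of them could be tested. In the challenge 9 passed, 4 higher and 5 lower, a share to be read beside the 20.5% of all probes, and the median difference of the 40 was 0.08. In the challenge under rapamycin 15 passed, 8 higher and 7 lower, beside 41.7% of all probes, with a median of -0.28. With limma 0 of 40 passed in rapamycin under challenge, in rapamycin alone and in the interaction, with 8, 2 and 6 at an unadjusted p under 0.05 and medians of -0.02, -0.04 and -0.16. The related genes therefore did not share the uniform direction of the 6 measured erythroid genes.

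Late red cell genes did not move as one. Of the 7 tested, 2 passed in the challenge, 1 higher and 1 lower, and 3 passed under rapamycin, 2 higher and 1 lower, beside 20.5% and 41.7% of all probes. Tspan33, a tetraspanin, rose in the challenge under rapamycin by 0.88, and Bnip3l, a mitophagy receptor of maturing red cells, fell by 0.47 in the challenge and by 0.52 under rapamycin, where its smallest difference over the scalings was -0.34.

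Of 7 tested genes of the red cell membrane and surface, 2 passed in the challenge, both lower, where 20.5% of all probes passed. Tmod1, which caps actin filaments in red cells and in muscle, fell by 1.61 (SE 0.30, adjusted p = 0.00459), with 1 of 3 BA+DMSO arrays well above background and differences of -1.78 to -0.51 over the scalings tried, and Xk, a membrane protein of the Kell complex, fell by 1.59 (SE 0.36, adjusted p = 0.0124), with -0.94 as its smallest difference over the scalings. In the challenge under rapamycin Tmod1 was not well above background in BA+rapamycin and, as processed for the levels above, at least 3.83-fold lower. Its measured differences were -2.56 to -0.43 over the scalings, so that bound does not hold under all of them. Xk fell by 1.96, with -1.03 as its smallest difference. Ermap, a red cell adhesion protein, rose by 1.16, though with array brightness as a covariate its difference was -0.16. In that comparison 41.7% of all probes passed. A second Xk probe gave -1.94 in the challenge and -0.71, not past the threshold, in the challenge under rapamycin. Icam4 passed as lower there too, but it was not well above background in BA+rapamycin, so no fold is given, and its difference was 0.54 under normexp background correction. Slc4a1, the membrane gene measured among the 9, thus differed in the direction opposite to Tmod1 and Xk. Epb42, Add2 and Kel, which belong to the red cell membrane, were not well above background on any of the 12 arrays.

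Of 18 tested genes of heme synthesis and erythroid iron uptake, 1 passed in the challenge, the mitochondrial transporter Abcb10, which fell by 0.54 (adjusted p = 0.0299), beside 20.5% of all probes. In the challenge under rapamycin 4 passed, beside 41.7% of all probes: Slc25a37, mitoferrin-1, rose by 0.90 and Fech, the last enzyme of heme synthesis, by 0.47, while Alad, its second enzyme, fell by 0.81 and the iron transporter Slc11a2 by 0.61 (adjusted p = 0.0459). Over the scalings the smallest differences were 0.48 for Slc25a37, 0.075 for Fech and -0.48 for Alad. A second Slc11a2 probe rose by 1.53 (adjusted p = 0.0112), so the direction of this gene is uncertain, and a second Slc25a37 probe rose by 2.38. The medians of the 18 were -0.0046 and -0.38. The probes of Alas1, the enzyme of other tissues that does the step of Alas2, disagreed. The probe used in the counts had differences of -0.16 in the challenge and -0.40 under rapamycin, neither past the threshold, and a second probe rose by 0.72 (adjusted p = 0.0309) and 0.995 (adjusted p = 0.00458).

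Of 8 tested genes of erythroid transcription and Epo signalling, 4 passed in the challenge, beside 20.5% of all probes. Nfe2, a factor of red cell and platelet precursors, rose by 1.28 (SE 0.26, adjusted p = 0.0076). It was well above background on 2 of 3 DMSO arrays and passed the filter only through BA+DMSO, the higher group. Its signal was near the floor, at 15.8 to 18.5 intensity units in DMSO and 16.2 to 38.2 in BA+DMSO, so its difference and call are a description. Epor, the erythropoietin receptor, rose by 0.92 and Lmo2 by 0.75, while Ldb1 fell by 0.69. In the challenge under rapamycin Nfe2 rose by 1.53, with 2 of 3 arrays of each group well above background, Zfpm1 by 0.87 and Tal1 by 0.80, and Ldb1 fell by 0.74, so that 4 of 8 passed beside 41.7% of all probes. With array brightness as a covariate the difference of Tal1 was -0.053, and the lowest values over the scalings were 0.72 for Nfe2 in the challenge and 0.53 each for Zfpm1 and Tal1 under rapamycin. Gata1 and Gfi1b were not well above background on any array, as Klf1 was on 11 of 12. The embryonic globins, of which 6 are on the array, had 0 members tested, and 5 of them, Hba-x, Hbb-y, Hbb-bh2, Hbq1a and Hbq1b, were not well above background on any array.

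**Figure D4:**
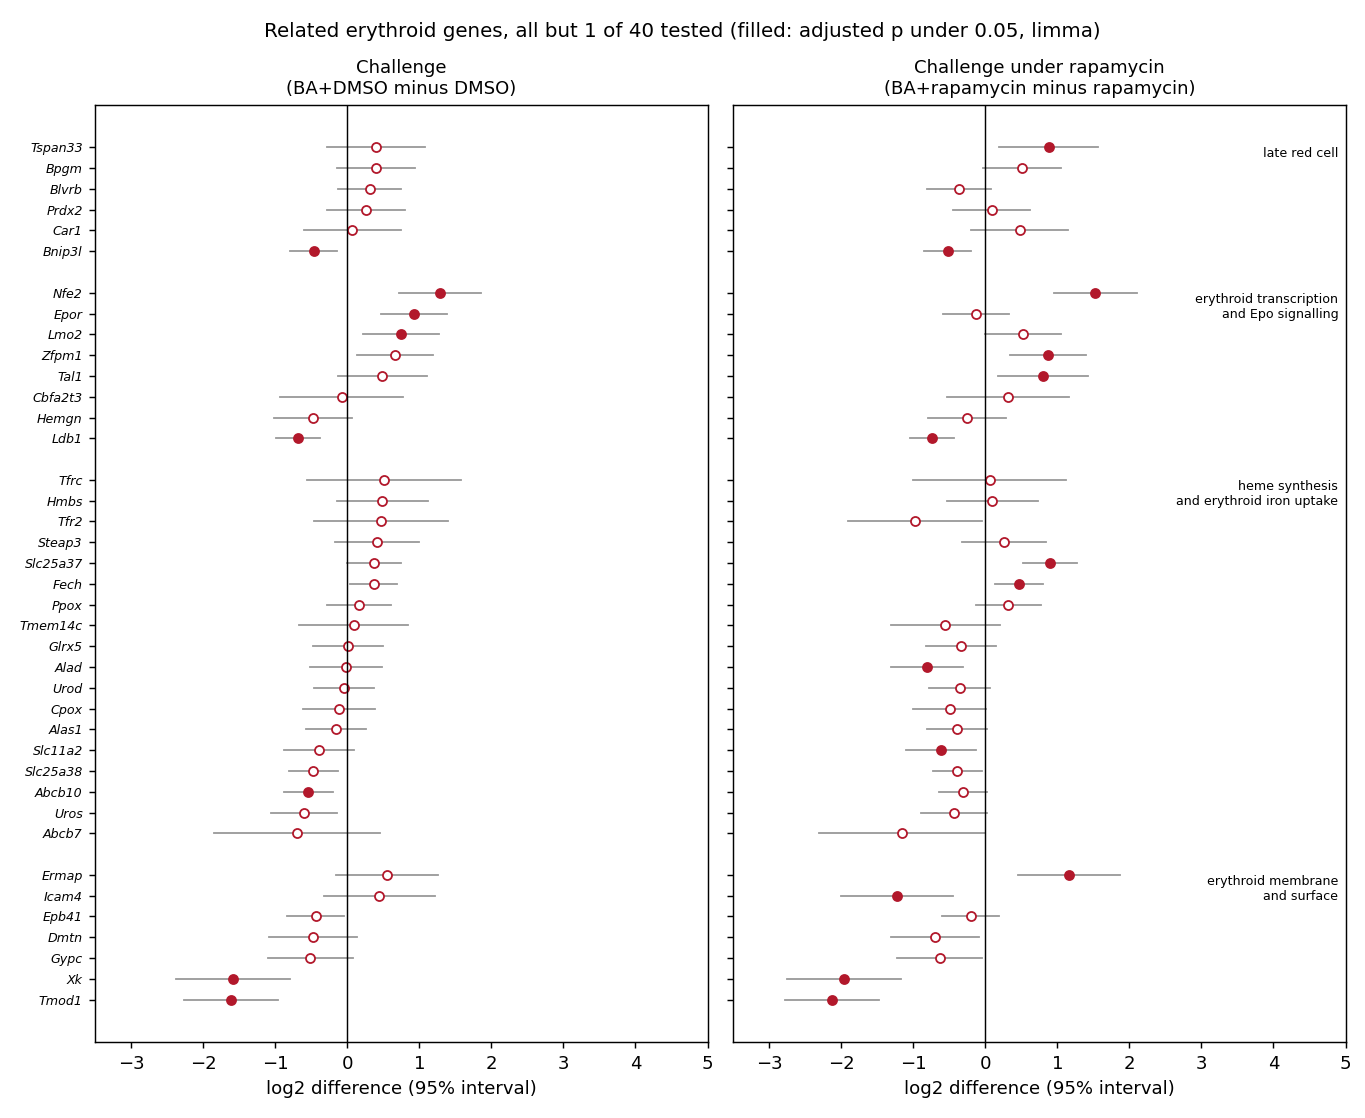
Log2 differences with 95% intervals of all but 1 of the 40 tested genes of the related erythroid lists, in the challenge and in the challenge under rapamycin. Filled points passed an adjusted p of 0.05 in limma. Filled points lie on both sides of 0.

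**Figure D5:**
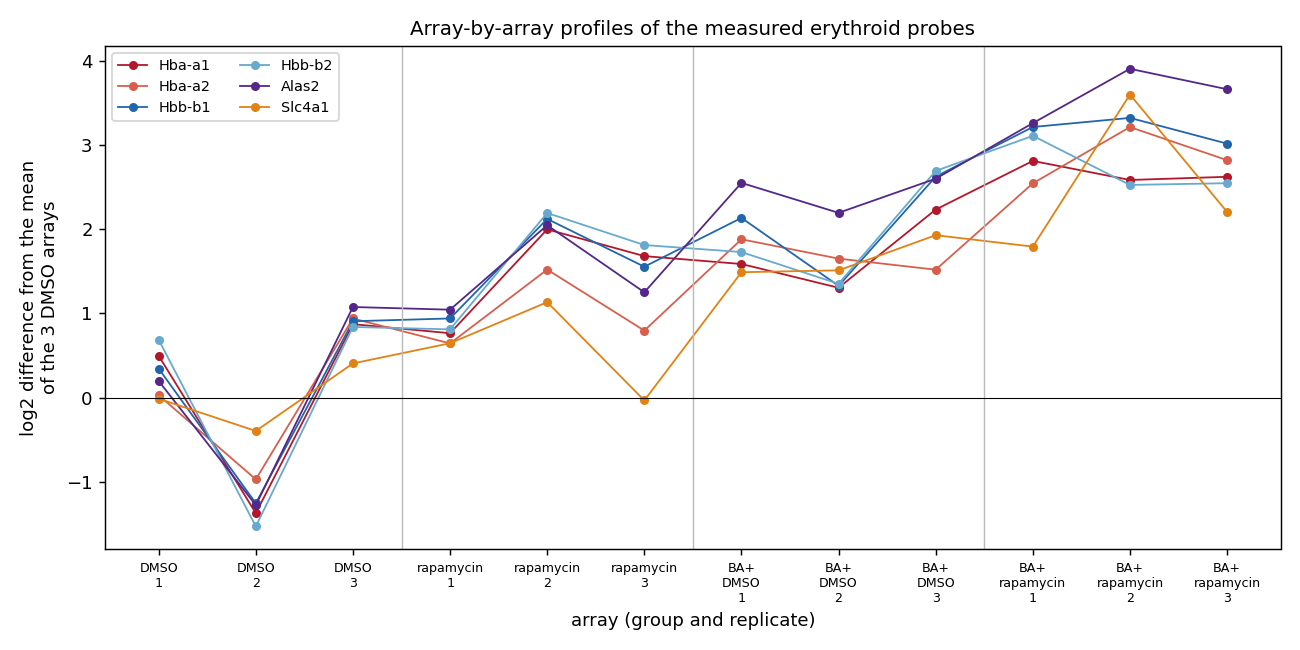
Log2 level of the 6 measured erythroid genes on each of the 12 arrays, as the difference from the mean of the 3 DMSO arrays. The lines fall together at DMSO 2 and lie highest in BA+rapamycin, and Slc4a1 departs most from the others.

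Genes that clear haemoglobin, heme and iron were measured on the same arrays, with all 12 of the list tested. In the challenge 6 passed, 4 higher and 2 lower, in a comparison in which 20.5% of all probes passed, and the median difference of the 12 was 0.32. Hp, haptoglobin, which binds free haemoglobin, rose by 2.87 (SE 0.77, adjusted p = 0.0242), Cd163, the macrophage receptor for that complex, by 2.09 (SE 0.50, adjusted p = 0.0157) and Hmox1, heme oxygenase 1, by 1.58 (SE 0.35, adjusted p = 0.0114). Cd163 was well above background on 1 of 3 DMSO and 2 of 3 BA+DMSO arrays, and its difference was 0.93 to 2.16 over the scalings tried. Ftl1, the ferritin light chain, rose by 1.27 (SE 0.18, adjusted p = 0.00122), and a second probe for it by 1.38. The genes that fell were Slc48a1, a heme transporter, by 0.80 and Fth1, the ferritin heavy chain, by 0.73, with -1.25 as its largest difference over the scalings. In rapamycin under challenge 1 of 12 passed: Slc40a1, ferroportin, the iron exporter, was lower (adjusted p = 0.0211) and was not well above background in BA+rapamycin. As processed for the levels above it was at least 1.86-fold lower. Its measured difference was -3.19 to -0.30 over the scalings, and at -0.30, under normexp, it did not pass, so that bound does not hold under normexp. In the challenge under rapamycin Hp rose by 3.82, Ftl1 rose by 1.08 (0.42 at its lowest over the scalings) and Slc48a1 fell by 1.26, with 5 of 12 past the threshold, 2 higher and 3 lower, against 41.7% of all probes. Slc40a1 passed there as lower, but its difference was 0.42 under normexp, so no fold is given.

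Markers of other blood cells were set beside the erythroid genes. Of 8 tested platelet genes 1 rose in the challenge, Pf4, and 3 in the challenge under rapamycin, beside 20.5% and 41.7% of all probes, with Gp6 and Tubb1 not well above background on any array. Gp9, among those 3, had levels of -6.03 and -6.18 on rapamycin 2 and 3, under the detection floor of those arrays. It passed the filter only through a challenged group, so its call is a description. The summed platelet level on the log2 scale was 2.77 to 4.07 in DMSO, 3.35 to 3.61 in rapamycin, 4.32 to 5.39 in BA+DMSO, and for BA+rapamycin 3.53 to 3.93, against 6.81 to 8.78, 8.54 to 9.50, 9.44 to 9.71 and 10.49 to 10.99 for the 9 erythroid genes. The erythroid sum was mainly Hba-a2 and the platelet sum mainly Pf4. Between BA+DMSO and BA+rapamycin 0 of the 8 platelet genes passed with limma, 1 of 8 with an unadjusted p under 0.05. The summed neutrophil level was 0.77 to 1.29 in DMSO, 1.41 to 1.73 in rapamycin, 2.01 to 2.96 in BA+DMSO, and for BA+rapamycin 1.70 to 2.72, with 2 of 5 tested genes higher in the challenge, 1 of 5 under rapamycin, beside the same shares of all probes, and Ngp not well above background on any array. DMSO 2 was the lowest of the 12 arrays in the platelet and the neutrophil sum as well. It was also the lowest in the monocyte and macrophage sum given below, but not in the lymphocyte sum.

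The summed monocyte and macrophage level was 6.75 to 7.12 in DMSO, 6.85 to 7.13 in rapamycin, 7.47 to 8.93 in BA+DMSO, and for BA+rapamycin 8.54 to 8.95, with 6 of 7 genes higher in both challenge comparisons, in which 20.5% and 41.7% of all probes passed. The summed lymphocyte level was 0.38 to 1.02 in DMSO, 0.16 to 1.26 in rapamycin, 1.28 to 1.84 in BA+DMSO, and for BA+rapamycin 1.36 to 1.87, with 2 of 6 tested genes higher in both. The part of these cells in the erythroid differences was not tested. With array brightness as a covariate the differences of the 6 erythroid genes were 1.37 to 2.55 in the challenge, with 3 of 6 past the threshold, and 1.32 to 2.40 under rapamycin, with 0 of 6. The tissue label was borne out by smooth muscle genes, 6 of 6 of which were tested, with a summed level of 11.26 to 12.23 over the 12 arrays, and by 5 of 5 endothelial genes.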

How the data were processed

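RNA from 12 mouse aortas was labelled with Cy3 by the authors and hybridised to 1-colour Agilent arrays on 2 slides. The deposited scanner files hold intensity on a linear scale, background-subtracted and detrended by Feature Extraction (10.7.1.1 per the file headers, 9.5.1.1 in the submitters' processing notes), with flags of 0 or 1 per spot. The deposited matrix holds intensity too, and each column followed that signal after quantile normalization (r of 0.9999 or above).

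Control spots and outlier spots were left out, and log2 values were scaled by each array's 75th percentile. Tested were probes with a minimum share of 0.5 of spots well above background throughout 1 group of 3 arrays (27801 of 55681 probes; 6 without a value on some array were dropped). All 12 arrays entered 1 limma 3.58.1 fit (R 4.3.3), two-sided, with Benjamini-Hochberg adjustment over all probes of a contrast and a threshold of 0.05. Moderation used 3.02 prior degrees of freedom, and the code was tested on simulated data. A gene stood by its probe of highest mean, and a fold bound used the dimmest probe well above background. The text names the 9 genes, up to 3 of the largest calls in each related list, and the 10 genes most like the globins by each measure; further calls and genes without a call were named after their values were seen. A few genes of the lists are not reported here by name. The 9 genes and all lists were chosen with earlier results of these data known. Replicates were numbered in the order of deposition, and the number of arrays limits the precision. Figures were drawn with matplotlib 3.10.9 (Python 3.11.15, pandas 2.3.3). Of the 9 genes, 8 matched the RefSeq table by accession.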

Additional observations from a re-analysis of the deposited data

How the results depend on the processing

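With 3 arrays per group, 2 slides that nearly follow the challenge, and dimmer challenged arrays, counts of calls moved more than differences did. The differences of the 6 measured erythroid genes in the 4 comparisons between groups kept their sign under every setting tried, the first slide alone, chosen after seeing the data, included. Of 702 re-computed values of these genes, 625 kept their side of the threshold, 74 lost it, 3 gained it and 0 changed sign while called. The 702 values came from 30 results, called or not. Only the 6 called in the challenge and the 4 called in the challenge under rapamycin could lose the threshold. The values for the named related genes came from called results alone, so the 2 sets of counts cannot be compared. Of these 840 values, 608 kept the threshold, 228 lost it and 4 changed sign. These were Icam4 with 0.54 and Slc40a1 with 0.42 under normexp, and Ermap with -0.16 and Tal1 with -0.053 with array brightness as a covariate, all in the challenge under rapamycin.

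For the 6 genes called in the challenge, quantile normalization, the deposited matrix and the brightness covariate each gave 3, the study's rule (unadjusted p under 0.01 and a fold over 4 or under 0.25) 2, a fit of only the groups compared 1 and slide as a fixed term 0. Leaving out single arrays gave 1 to 6, with 1 without DMSO 2, 1 without BA+DMSO 1 and 3 without DMSO 1. For the 4 called in the challenge under rapamycin, the deposited matrix and the second slide alone gave 2, the study's rule 1 and brightness 0, and single arrays 3 to 5. For the 9 related genes called in the challenge, the slide gave 0 as a fixed and 15 as a random term, own groups 3 and the study's rule 1, and single arrays 3 to 15, with 3 without DMSO 2, 4 without BA+DMSO 1 and 15 without BA+DMSO 3. For the 15 in the challenge under rapamycin, normexp gave 29, no filter 24, own groups 23, a fixed slide term 7, the second slide 5, brightness 4 and the study's rule 1. Single arrays gave 5 to 24 there, with 7, 9 and 5 without rapamycin 1, 2 and 3, 8 without BA+rapamycin 2 and 24 without BA+DMSO 2. Without BA+DMSO 2 the related genes called were 15 rather than 0 in rapamycin under challenge and 3 rather than 0 in the interaction. The globin share of BA+rapamycin was 0.309% in the deposited matrix. The cause was not tested for any of these.

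Scaling to probes detected on all arrays moved the median of all probes by 0.14 in rapamycin under challenge, 0.18 in the challenge under rapamycin and 0.12 in the interaction, and normexp by 0.14 in the challenge and 0.22 in the challenge under rapamycin. Of all probes called, 25.6% were higher in rapamycin under challenge and 69.1% with the first of these scalings; in the challenge under rapamycin these were 45.2% and 56.8%, and 59.2% under normexp.

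DMSO 2 and 3 share a title code and number with rapamycin 2 and 3, and the deviations of these 2 pairs correlated at 0.17 and -0.35. DMSO 1 shares a code and number with BA+rapamycin 3 (0.087), and BA+DMSO 1 a code with BA+rapamycin 1 (-0.27). What a code marks is not stated, so no pairing was assumed. With the title number of DMSO and rapamycin as a replicate block the erythroid genes called were 0 in the challenge and 2 in the challenge under rapamycin, and the related genes 0 and 5; the counts of 0 in the other comparisons stayed at 0.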
